A study of Schizosaccharomyces pombe with 8 samples.

Results

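The comparison set the 2 arrays labelled Δpka1 against the 2 arrays labelled Δcgs1, which made 4 of the 8 arrays of a series on the fission yeast Schizosaccharomyces pombe. The arrays were chosen by strain label alone and were paired by slide, and all 4940 measured genes were compared. The first group is strain YMP37, whose pka1 was disrupted with the marker gene ura4, and the second is strain YMP41, whose cgs1 was disrupted with the same marker. Wild type is the parent PR110, which still has both genes and lacks a functional ura4. All of these strains are h+ and carry leu1-32 and ura4-D18, and 1 strain stands for each genotype. The 2 arrays of a strain came from separate cultures in 50 mL of YES, a rich medium with glucose, grown at 30 °C for 8 hours into logarithmic phase. A Δppt1 strain of the series (OG1, ppt1::kanMX6) entered the fit only to help estimate the spread.

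Cyclic AMP-dependent protein kinase (PKA) is the main glucose signal of fission yeast. Glucose acts through a cell surface receptor and a G protein on adenylate cyclase, and the cAMP made there releases the catalytic subunit Pka1 from the regulatory subunit Cgs1. Active Pka1 keeps genes for gluconeogenesis, for the use of other carbon sources and for mating low while glucose is plentiful. Cells without Pka1 lack the kinase, and cells without Cgs1 hold it active whatever the cAMP level. The comparison therefore places low beside high PKA activity in the same medium, with the same marker gene in both strains. The activity itself was not measured.

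The labels were read first on the targeted genes, with values in the order slide 1, slide 2. Signals are intensities on a linear scale, differences are on the log2 scale as the arrays labelled Δpka1 minus Δcgs1, and adjusted p-values come from limma over all genes. For cgs1 the arrays labelled Δpka1 read 46361 and 54252, against 1404 and 1360 in Δcgs1 and 20232 and 28238 in wild type. The Δcgs1 arrays were therefore low where their label says so, and the arrays labelled Δpka1 lay at least 20.1-fold above them (difference 5.18, SE 0.13, adjusted p = 9.22e-05). Where both arrays of a strain lay at or below 2497, a fold is given as "at least", reckoned from that limit. The limit is the highest signal of ura4 in wild type and Δppt1, of cgs1 in Δcgs1 and of ppt1 in Δppt1. Signal for pka1 in the arrays labelled Δpka1 was not used for it. The limit was carried over to all other probe sets, whose own background was not measured, so folds given as "at least" are rough bounds.

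Signal for pka1 did not show a loss. The arrays labelled Δpka1 gave 38387 and 46832, against 28563 and 34673 in Δcgs1 and 28743 and 34715 in wild type. Both arrays labelled Δpka1 lay above the array of the same slide in the other strains, and the difference from Δcgs1 was 0.43 (SE 0.06, adjusted p = 0.00438). The difference was not called without the slide block (adjusted p = 0.152), nor with the first Δcgs1 array left out (adjusted p = 0.0509). The labels and files name neither the part of pka1 that was replaced nor where its probes lie, so this signal does not settle the label. The arrays are called "labelled Δpka1" throughout, and each direction below rests on that label. Only arrays with this label had both ura4 and cgs1 above the background limit. Signal for ura4 lay under it in wild type and Δppt1, and signal for cgs1 in Δcgs1. That sets these arrays apart from the other strains of the series but does not show that pka1 was lost. The marker ura4, which encodes an enzyme of uracil synthesis, read 32716 and 37383 in the arrays labelled Δpka1, against 39913 and 44787 in Δcgs1 and 1362 and 1627 in wild type. It was high in both disruptants, and the difference between them was not called (-0.27, 95% interval -0.69 to 0.14, adjusted p = 0.237). It was called after quantile normalization (adjusted p = 0.0126), in the 4 arrays of these strains alone (0.00499) and without either Δppt1 array (0.00958).

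The genes next to the disrupted ones in the reference gene order were close between the strains. Beside pka1, cut4 read 24196 and 31107 in the arrays labelled Δpka1, against 22446 and 25461 in Δcgs1 (0.20, SE 0.05, adjusted p = 0.0352, and 0.555 without the slide block). With the second Δcgs1 array left out, cut4 had adjusted p = 0.207. The other neighbour of pka1, plg7, and both neighbours of cgs1, SPAC1142.09 and SPAC8C9.04, were not called, with differences from -0.11 to 0.14. Mating type could not be read from these arrays. The P-cell genes map2 and map3 had signal in every strain, but so had the M-cell genes mam1 and mam2, and levels of different probe sets cannot be set against each other. Of the M-factor genes, mfm2 stayed at or below 1942 on all arrays of the 3 strains, under the background limit.

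Of the 4940 genes, 2041 were called at an adjusted p below 0.05, which is 41.3% of those tested. Of these, 619 (12.5%) were higher in the arrays labelled Δpka1 and 1422 (28.8%) were lower. Most calls were small: 1538 of them, or 75.4%, were under 1.5-fold. A stricter count took genes that were called and differed at least 2-fold in the same direction on both slides. That left 166 genes (3.36%), of which 107 (2.17%) were higher in the arrays labelled Δpka1 and 59 (1.19%) were lower. All 166 were also called without the slide block. The arrays of the 2 strains did not overlap for any of the 166, against an overlap in 343 of all 2041 calls. A 2-fold difference on both slides leaves little room for overlap, so this adds no separate support.

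The split between higher and lower calls depended on the scaling of the arrays, while the 107 stricter rises were found in each. Higher genes made up 30.3% of all calls as deposited, 38.7% after median centring, 42.1% after quantile normalization, 50.8% after cyclic loess and 42.3% without the slide block. Among the stricter calls they made up 64.5%, 68.9% after median centring, 73.6% after quantile normalization and 75.0% after cyclic loess. All 107 rises passed under these scalings, against 51, 43 and 41 of the 59 falls. The same scalings moved the median difference over all genes up, from -0.07 to -0.03, -0.02 and 0.01. The rises are therefore not shown to be firmer than the falls. Over all 4940 genes, 827 were higher and 1311 lower after median centring, and 977 and 1342 after quantile normalization. After cyclic loess 1137 were higher and 1102 lower, and without the slide block 216 and 295. Counts given below for a gene list in these fits are to be read beside these. In all, 511 genes (10.3%) were called without the slide block. With 1 array left out the count was 883 without the first Δcgs1 array, 979 without the second, 1307 without the first array labelled Δpka1 and 1132 without the second.

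**Figure D1:**
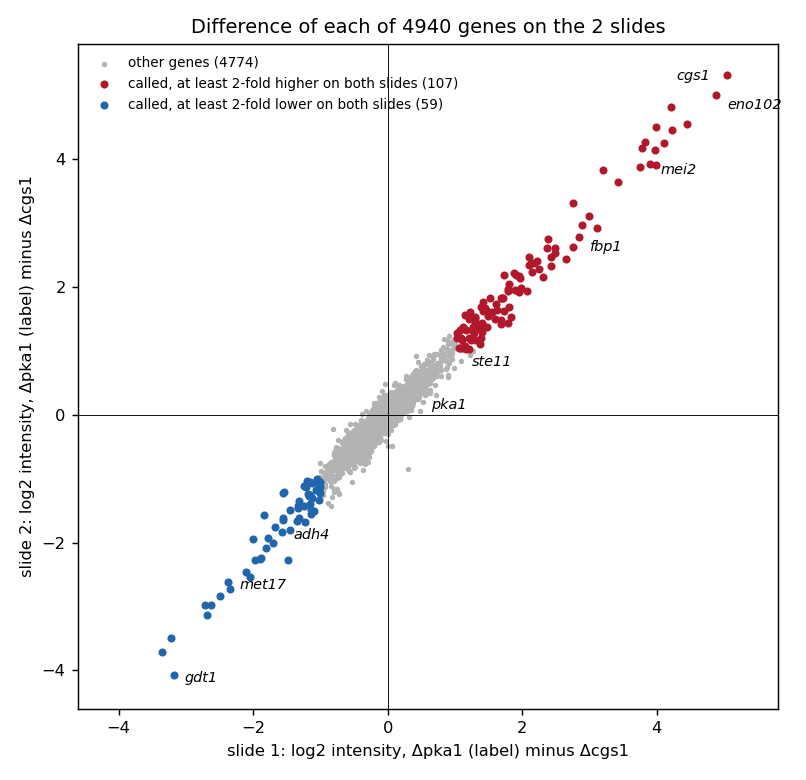
Each point is 1 of 4940 genes, with its log2 difference (arrays labelled Δpka1 minus Δcgs1) on slide 1 along x and on slide 2 along y; red points are the 107 genes and blue points the 59 genes called and at least 2-fold higher or lower on both slides. The points follow the diagonal, with Pearson's r = 0.971 across genes, and the rises reach further from 0 than the falls do.

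Both slides gave much the same picture. In cultures measured whole, more RNA per cell and more cells with a transcript cannot be told apart. Across the 4940 genes, which are not independent replicates, the differences of slide 1 and slide 2 had r = 0.971 and lay a median of 0.0732 apart on the log2 scale. The rises were the larger changes. Of the 107 genes, 18 had a mean difference over 8-fold, the disrupted gene cgs1 among them, against 3 of the 59 falls. Both ends of the scale limit these folds. In 14 of the 107 rises the Δcgs1 arrays lay in the background, in 15 of the 59 falls the arrays labelled Δpka1 did, and for 10 of the 166 genes the fold reckoned from the limit was under 2. In 24 of the rises and 3 of the falls an array came within 10% of the highest value, at or above 58715, where folds are compressed.

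Genes that bring in sugars were among the largest rises. Of 8 measured hexose transporter genes, 5 were higher in the arrays labelled Δpka1 (62.5%, against 12.5% of all genes) and none was lower, with or without the slide block, and 4 were at least 2-fold higher on both slides. The median of the list was 1.18, against -0.07 over all genes. The largest change was that of ght3, which encodes a gluconate transporter and read 19668 and 21272 in the arrays labelled Δpka1, against 1386 and 1108 in Δcgs1. Its Δcgs1 arrays lay in the background, so the rise was at least 8.19-fold (4.05, SE 0.14, adjusted p = 9.7e-05). The transporter gene ght1 read 49619 and 53463 in the arrays labelled Δpka1, against 9195 and 10604 in Δcgs1, which put both pairs well apart (2.38, SE 0.08, adjusted p = 9.7e-05).

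The high-affinity glucose transporter gene ght5 moved on both sides of wild type. It read 63726 and 62116 in the arrays labelled Δpka1, against 18374 and 23044 in Δcgs1 and 31754 and 36776 in wild type. The difference between the disruptants was 1.61 (SE 0.10, adjusted p = 0.000367). The Δpka1-labelled pair was near the top of the scale and the 3 strains did not overlap, but Δcgs1 minus wild type was not called (-0.73, adjusted p = 0.057). Signal for ght4 was 48368 and 56193 in the arrays labelled Δpka1, against 10200 and 11625 in Δcgs1 (2.26, SE 0.08). The remaining called member, ght7, stayed low, with 3866 and 3386 in the arrays labelled Δpka1, against 2223 and 2090 in Δcgs1, at least 1.45-fold higher.

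Genes that make sugar or take up other carbon sources moved the same way. Of 12 measured genes of gluconeogenesis, glycerol use and sugar hydrolysis, 9 were higher (75%, against 12.5% of all genes) and none was lower, with or without the slide block, and 6 passed the stricter count. Their median was 1.28. The gene fbp1 encodes fructose-1,6-bisphosphatase, the enzyme of gluconeogenesis long used as the reporter of glucose repression in this yeast. It read 59398 and 64880 in the arrays labelled Δpka1, against 8304 and 9409 in Δcgs1 and 6964 and 9053 in wild type. Both arrays labelled Δpka1 stood at the top of the scale, while Δcgs1 and wild type overlapped (2.81, SE 0.10, adjusted p = 0.000101).

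Glycerol and sugar enzymes followed. Signal for dak2, a dihydroxyacetone kinase gene, was 55796 and 56422 in the arrays labelled Δpka1, against 11243 and 12694 in Δcgs1 (2.23, SE 0.12, adjusted p = 0.000285). Glycerol dehydrogenase, the step before it, is encoded by gld1, which read 55956 and 61999 in the arrays labelled Δpka1, against 19108 and 20254 in Δcgs1 (1.58, SE 0.04). The secreted α-glucosidase gene agl1 read 44560 and 53306 in the arrays labelled Δpka1, against 16376 and 16701 in Δcgs1 (1.56, SE 0.06). For each of the 3 genes the lower array labelled Δpka1 lay above the higher Δcgs1 array. The α-galactosidase gene mel1 read 24876 and 25128 in the arrays labelled Δpka1, against 1584 and 1429 in Δcgs1, which are in the background, a rise of at least 10.0-fold (4.05, SE 0.16, adjusted p = 0.000116). The galactose enzyme gene gal10 rose by 1.52 (SE 0.09). The invertase gene inv1, added after the values were seen, was not called (0.14, 95% interval 0.03 to 0.25, adjusted p = 0.0519), but was after median centring (0.0167), quantile normalization (0.00714) and cyclic loess (0.00494).

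**Figure D2:**
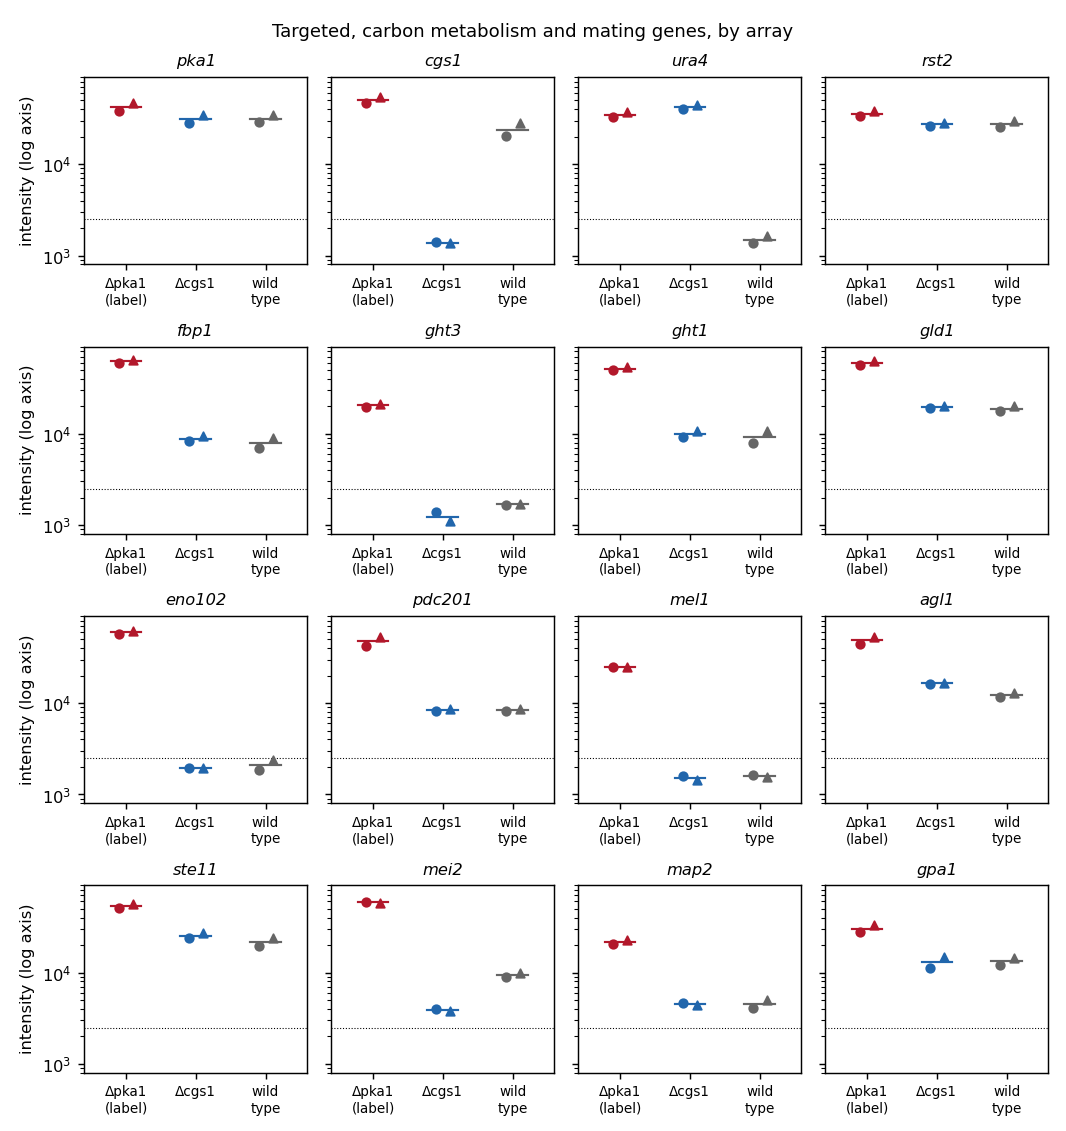
Intensity (log axis) of 16 genes in the arrays labelled Δpka1 (red), Δcgs1 (blue) and wild type (grey), with circles for slide 1, triangles for slide 2, a bar at the mean of the 2 arrays and a dotted line at the background limit of 2497. Outside the ura4 panel both red points lie above every blue and grey point, and pka1 does not fall to the dotted line in the arrays that carry its label.

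Glycolysis and fermentation held large changes in single genes, while most of the list lay near the top of the scale. Of 19 measured genes, 3 were higher (15.8%, against 12.5% of all genes) and 2 were lower (10.5%, against 28.8%), and the median was -0.00. In 13 of the 19 the mean signal lay within 10% of the highest value, where differences are compressed. With genes of this brightness left out, 6 members remained, of which 4 were higher and 2 lower, with a median of 0.51. Of all 4570 genes tested in that fit, 620 were higher and 1471 lower. The second enolase gene eno102 read 57358 and 62059 in the arrays labelled Δpka1, against 1938 and 1936 in Δcgs1, which are in the background. That rise was at least 23.9-fold (4.94, SE 0.16, adjusted p = 9.7e-05). The pyruvate decarboxylase genes went different ways. Signal for pdc201 was 42645 and 53072 in the arrays labelled Δpka1, against 8221 and 8675 in Δcgs1 (2.49, SE 0.09). Signal for pdc102 was 1312 and 1027 in the arrays labelled Δpka1, in the background, against 3594 and 3571 in Δcgs1, at least 1.43-fold lower (-1.63, SE 0.16, adjusted p = 0.00147). The alcohol dehydrogenase gene adh4 fell to 11614 and 11626 in the arrays labelled Δpka1, against 34465 and 41518 in Δcgs1 (-1.70, SE 0.10, adjusted p = 0.000321). Another of these genes, pdc202, rose by 0.68 (SE 0.06, adjusted p = 0.00103, and 0.0662 without the slide block).

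Genes of the signalling pathway itself held small rises. Of 23 measured genes of PKA and glucose signalling, 9 were higher (39.1%, against 12.5% of all genes), pka1 and cgs1 among them, and 2 were lower (8.70%, against 28.8%). Only cgs1 passed the stricter count, and since it is the gene disrupted in Δcgs1, its difference was set by the design. The median of the list was 0.12, and without the slide block 2 were higher and none lower. With 1 array left out, 5 were higher without the first Δcgs1 array and 6 without the first array labelled Δpka1, and 1 was lower whichever array of these strains was left out. At the cell surface, the glucose receptor gene git3 read 44180 and 50148 in the arrays labelled Δpka1, against 22747 and 25265 in Δcgs1 and 21526 and 27432 in wild type. Only the Δpka1-labelled pair was high, and git3 held its call without the slide block (0.97, SE 0.06, adjusted p = 0.000366).

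Behind the receptor, the G protein β subunit gene git5 read 28761 and 39065 in the arrays labelled Δpka1, against 16683 and 19322 in Δcgs1 (0.90, SE 0.07, adjusted p = 0.000746, and 0.053 without the slide block). The α subunit gene gpa2 rose by 0.49 (SE 0.05, adjusted p = 0.00207, and 0.172 without the slide block). The γ subunit gene git11 (0.07, adjusted p = 0.55) and the adenylate cyclase gene cyr1 (0.19, adjusted p = 0.127) were not called in the values as deposited. Both calls depended on the scaling: git11 was higher by 0.25 after quantile normalization (adjusted p = 0.00668) and by 0.29 after cyclic loess (0.00627), and cyr1 had adjusted p = 0.0378 after median centring, 0.0343 after quantile normalization, 0.0222 after cyclic loess and 0.025 without either Δppt1 array. The cAMP phosphodiesterase gene cgs2 was 0.18 lower on the log2 scale (difference -0.18, SE 0.05, adjusted p = 0.0387), and this call was lost without the slide block (0.399) and in 6 of 8 fits with an array left out, up to adjusted p = 0.197 without the first array labelled Δpka1.

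Among the transcription factors below the kinase, rst2, the zinc-finger activator of fbp1 and ste11, read 33548 and 38201 in the arrays labelled Δpka1, against 26244 and 28413 in Δcgs1 (0.39, SE 0.04, adjusted p = 0.00221, and 0.12 without the slide block). The co-repressor gene tup11 was lower (-0.30, SE 0.04, adjusted p = 0.00395, and 0.288 without the slide block), while its partners tup12 (0.04, adjusted p = 0.547) and ssn6 (-0.00, adjusted p = 0.956) were not called. The repressor gene scr1 was higher by 0.25 (SE 0.05, adjusted p = 0.00978), with both arrays labelled Δpka1 near the top of the scale. The call for scr1 was lost without the slide block (adjusted p = 0.113) and, at its highest, had adjusted p = 0.0829 without the first Δcgs1 array.

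Most genes of the switch to mating rose. Of 23 measured genes of entry into sexual differentiation, 16 were higher (69.6%, against 12.5% of all genes) and 4 were lower (17.4%, against 28.8%). The median was 0.62, 7 genes passed the stricter count as higher, and without the slide block 13 were higher and 1 lower. With an array of either strain left out, fewer genes of this list were called in each direction. The largest change was in mei2, which encodes the RNA-binding protein that starts meiosis. It read 59554 and 57790 in the arrays labelled Δpka1, against 3998 and 3792 in Δcgs1 and 8875 and 9788 in wild type (a difference of 3.91 with SE 0.16 and adjusted p = 0.000132). The 3 strains did not overlap: the arrays labelled Δpka1 were near the top of the scale and Δcgs1 was lowest. The difference of Δcgs1 from wild type was -1.26 but was not called (adjusted p = 0.0566).

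Upstream of mei2, the gene of the master regulator of mating, ste11, was named after the values were seen. It read 50680 and 55805 in the arrays labelled Δpka1, against 23878 and 26922 in Δcgs1 and 19746 and 23706 in wild type (a difference of 1.07 with SE 0.10 and adjusted p = 0.00114). Several genes of the pheromone pathway were also among the rises. Signal for gpa1, the G protein α subunit behind the pheromone receptors, was 27519 and 33173 in the arrays labelled Δpka1, against 11224 and 14818 in Δcgs1 (1.23, SE 0.05). The adaptor gene ste4 of the same pathway read 12607 and 16132 in the arrays labelled Δpka1, against 4704 and 4769 in Δcgs1 (1.59, SE 0.14). Its negative regulator gene rgs1 read 15734 and 22764 in the arrays labelled Δpka1, against 5490 and 6431 in Δcgs1 (1.67, SE 0.11). In these 3 genes no array of one strain reached the range of the other. The Ras gene of the same pathway, ras1, named after the values were seen, was called lower (-0.20, adjusted p = 0.0242), a call lost without the slide block (0.572), after quantile normalization (0.0677) or cyclic loess (0.205) and, at its highest over fits with an array left out, without the first Δcgs1 array (0.167).

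Mating-type-specific genes did not all move. Of 4 measured P-cell genes 3 were higher (75%, against 12.5% of all genes) and none lower, with a median of 0.63. Of 9 measured M-cell genes 1 was higher (11.1%, against 12.5% of all genes) and 2 were lower (22.2%, against 28.8%). Their median of -0.07 turned to 0.02 after quantile normalization and 0.03 after cyclic loess. The fit with no slide block called 2 P-cell genes and no M-cell gene. With an array of either strain left out 2 P-cell genes were higher, and of the M-cell genes 1 was higher without the second array labelled Δpka1 and 1 lower without the first. After cyclic loess 3 M-cell genes were higher and 1 lower, where 1137 of all genes were higher and 1102 lower. The P-factor gene map2 read 20398 and 22915 in the arrays labelled Δpka1, against 4659 and 4402 in Δcgs1 (2.26, SE 0.19, adjusted p = 0.000921). The regulator gene of P-cell identity, map1, read 9454 and 10803 in the arrays labelled Δpka1, against 2453 and 2388 in Δcgs1, which are in the background, a rise of at least 4.05-fold (2.06, SE 0.13). The M-factor receptor gene map3 rose by 0.86 (SE 0.09, adjusted p = 0.00185). Of the M-cell genes, the P-factor receptor gene mam2 had a difference of -0.33 (SE 0.08, adjusted p = 0.0215), which was not called without the slide block (0.371) or, at its highest, without the first Δcgs1 array (0.137).

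Genes of later stages of the sexual cycle fell at about the share of all genes. Of 35 measured genes of meiosis and sporulation 1 was higher (2.86%, against 12.5% of all genes) and 9 were lower (25.7%, against 28.8%), with a median of -0.11. The direction of that median depended on the scaling, at 0.00 after quantile normalization and 0.03 after cyclic loess, where 8 genes were higher and 9 lower. After quantile normalization 5 were higher, and without the slide block 3 were lower. Over all genes 1137 were higher and 1102 lower after cyclic loess. Quantile normalization gave 977 higher over all genes, and the fit without the slide block 295 lower. With an array of either strain left out, fewer genes of this list were called lower. The single rise was isp3, which encodes a protein of the spore wall and read 30560 and 35703 in the arrays labelled Δpka1, against 3317 and 2504 in Δcgs1 (3.52, SE 0.21, adjusted p = 0.000357). Some falls reached from low signals into the background, as in meu10, with 1444 and 1225 in the arrays labelled Δpka1, against 2825 and 2507 in Δcgs1, at least 1.07-fold lower.

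Stress genes were a further group of large rises. Of 33 measured genes of the environmental stress response, 18 were higher (54.5%, against 12.5% of all genes) and 3 were lower (9.09%, against 28.8%). The median was 0.31, and 10 genes passed the stricter count as higher. In the fit with no slide block 11 were higher and 1 lower, and 1 was lower without the first Δcgs1 array or the second array labelled Δpka1. The metallothionein gene zym1 read 46573 and 48728 in the arrays labelled Δpka1, against 2943 and 3237 in Δcgs1 (3.95, SE 0.13, adjusted p = 9.7e-05). Signal for lsd90 was 54260 and 58733 in the arrays labelled Δpka1, against 3154 and 3074 in Δcgs1 (4.18, SE 0.15, adjusted p = 0.000102). The small heat shock protein gene hsp9 read 50649 and 54035 in the arrays labelled Δpka1, against 7522 and 8793 in Δcgs1 (2.69, SE 0.08). In all 3 the arrays labelled Δpka1 stood in the upper part of the scale and Δcgs1 lay close to wild type, with differences of Δcgs1 from wild type between -0.24 and -0.07, none of them called.

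Within the same list the changes spanned a wide range. Signal for ddr48 was 59250 and 63336 in the arrays labelled Δpka1, against 5520 and 5095 in Δcgs1 (3.53, SE 0.12). The DJ-1 family gene hsp3101 read 53888 and 53207 in the arrays labelled Δpka1, against 12876 and 13850 in Δcgs1, and its relatives hsp3102 and hsp3103 rose by 2.29 and 2.22 (SE 0.16 and 0.11). Trehalose genes moved little: the neutral trehalase gene ntp1 rose by 0.67 (SE 0.05, adjusted p = 0.000582, and 0.0544 without the slide block). The synthase gene tps1 rose by 0.29 with arrays near the top of the scale, a call lost without the slide block (adjusted p = 0.23) and, at its highest, without the first Δcgs1 array (0.133). Both trehalose genes and hsp3101 were named after the values were seen.

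Redox defence genes did not move together. Of 25 measured, 6 were higher (24%, against 12.5% of all genes) and 7 were lower (28%, against 28.8% of all genes), with a median of -0.11. Without the slide block 5 were higher and none lower, and leaving out 1 array left 1 of the 7 falls without either Δcgs1 array, 3 without the first array labelled Δpka1 and 4 without the second. Genes of enzymes that remove peroxide and superoxide were called in both directions or not at all. The glutathione peroxidase gene gpx1 read 40758 and 46288 in the arrays labelled Δpka1, against 13552 and 16328 in Δcgs1 (1.55, SE 0.04, adjusted p = 9.22e-05). The catalase gene ctt1 read 62881 and 64437 in the arrays labelled Δpka1, near the top of the scale, against 29816 and 31364 in Δcgs1 (1.06, SE 0.09). The manganese superoxide dismutase gene sod2 rose by 0.76 (SE 0.06), while sod1, for the copper-zinc enzyme, was not called (0.07, adjusted p = 0.209). The peroxiredoxin gene tpx1 was lower (-0.18, adjusted p = 0.0168), a call lost without the slide block (0.26), after median centring (0.0696) and, at its highest over fits with an array left out, without the second Δcgs1 array (0.112). Both sod1 and tpx1 were named after the values were seen, and each had at least 1 array near the top of the scale. On the other side, the mitochondrial glutaredoxin gene grx5 was lower (-0.73, adjusted p = 0.0062), a call lost without the slide block (0.0617) and without the first (0.0511) or second (0.062) Δcgs1 array.

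**Figure D3:**
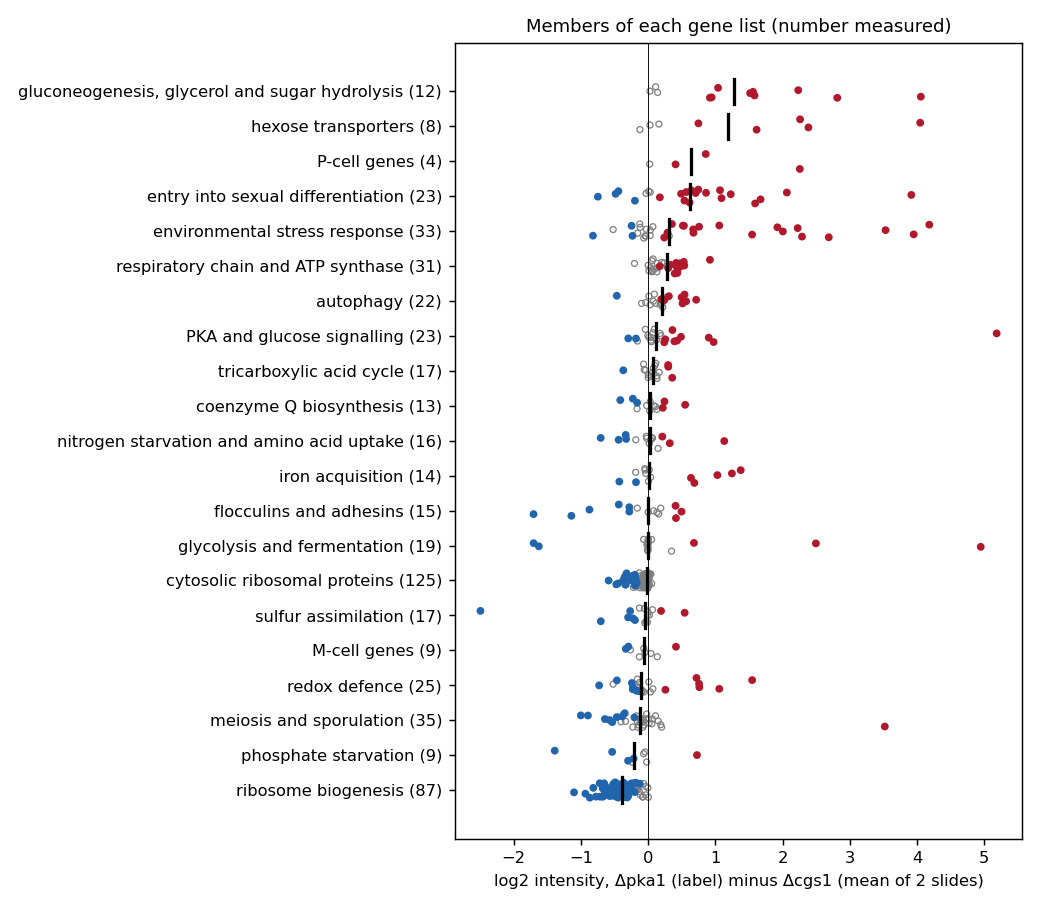
Every measured member of 21 gene lists, with its mean log2 difference over 2 slides (arrays labelled Δpka1 minus Δcgs1) along x; red and blue points are genes called higher and lower, open points are not called, and black bars are medians. Lists of carbon source use, mating and stress lie right of 0 with long tails, and ribosome biogenesis lies left of 0 with no tail.

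Respiratory genes showed many small rises. Of 31 measured genes for the respiratory chain and the ATP synthase, 16 were higher (51.6%, against 12.5% of all genes) and none was lower, with a median of 0.28, and none reached 2-fold on both slides. This count rested on the slide block, since 3 were called without it, and it was 7 without either Δcgs1 array, 10 without the first array labelled Δpka1 and 9 without the second. The gene of the mitochondrial glycerol-3-phosphate dehydrogenase, gut2, changed most, with 60214 and 63345 in the arrays labelled Δpka1, against 30909 and 34543 in Δcgs1 (0.92, SE 0.05, adjusted p = 0.000238). The ATP synthase gene atp14 rose by 0.53 (SE 0.04, adjusted p = 0.000602). The tricarboxylic acid cycle, of 17 measured genes, had 3 higher (17.6%, against 12.5% of all genes) and 1 lower (5.88%, against 28.8%), with a median of 0.08 and none called without the slide block. The rises numbered 6 after median centring, where 827 of all genes were higher. They numbered 7 after quantile normalization, after cyclic loess or with a trended prior (977, 1137 and 667 of all genes). Without the first Δcgs1 array none was higher, without the second 2 were, and the single fall was called only without the first array labelled Δpka1 among these 4 omissions. Coenzyme Q biosynthesis, of 13 measured genes, had 3 higher (23.1%, against 12.5% of all genes) and 3 lower (23.1%, against 28.8%). Their median was 0.03, and none was called without the slide block. With an array of either strain left out, 0 to 2 were higher and 0 to 1 lower, and 0 of both kinds without the second Δcgs1 array. The falls numbered 1 after quantile normalization or with a trended prior and 0 after cyclic loess. In these fits 1342, 1581 and 1102 of all genes were lower.

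Iron uptake genes included several rises. Of 14 measured genes of iron acquisition, 5 were higher (35.7%, against 12.5% of all genes) and 2 were lower (14.3%, against 28.8%), with a median of 0.01, and without the slide block 4 were higher and 1 lower. Without the second array of either strain 3 were higher, and 1 was lower whichever of the 4 arrays was left out. The ferric reductase gene frp1 read 36743 and 42031 in the arrays labelled Δpka1, against 14980 and 15299 in Δcgs1 (1.38, SE 0.06, adjusted p = 0.000132). The siderophore transporter gene str1 read 60026 and 63720 in the arrays labelled Δpka1, against 23103 and 29459 in Δcgs1 and 46421 and 50866 in wild type (a difference of 1.25 with SE 0.08). For str1 the arrays labelled Δpka1 were near the top of the scale and Δcgs1 was the low strain. It lay 0.90 below wild type on the log2 scale (difference -0.90, adjusted p = 0.0189). Nearly all calls of Δcgs1 against wild type were lost with either Δcgs1 array left out. Whether str1 was among the lost calls was not looked at, so this call is uncertain. The multicopper oxidase gene fio1, whose product works with the iron permease, rose by 1.03 (SE 0.09).

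Ribosome biogenesis genes were lower in large number and by small amounts. Of 87 measured genes, 67 were lower in the arrays labelled Δpka1 (77.0%, against 28.8% of all genes) and none was higher. The median was -0.39, and no gene reached 2-fold on both slides. The lower count was 64 after median centring, where 1311 of all genes were lower, and 66 after quantile normalization (1342 of all genes). It was 63 after cyclic loess (1102) and 16 without the slide block (295). Leaving out 1 array left 45 without the first Δcgs1 array and 48 without the second. The nucleolar gene mak16, needed for the large subunit, read 6350 and 6597 in the arrays labelled Δpka1, against 12542 and 15387 in Δcgs1 (-1.10, SE 0.09, adjusted p = 0.000837). The large subunit assembly gene rpf2 read 23215 and 26691 in the arrays labelled Δpka1, against 43114 and 47793 in Δcgs1 (-0.87, SE 0.05). The export factor gene arx1 read 26008 and 32340 in the arrays labelled Δpka1, against 46978 and 55435 in Δcgs1 (-0.82, SE 0.05). In these 3 genes both arrays labelled Δpka1 lay below both Δcgs1 arrays.

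Most genes of the ribosomal proteins themselves read near the top of the scale. Of 125 measured genes, 16 were lower (12.8%, against 28.8% of all genes) and none higher, but for 89 the mean lay at or above 58715, near the top of the scale. With genes of this brightness left out, 36 members remained, of which 18 were lower and none higher, with a median of -0.18, while 1471 of all 4570 genes tested were lower. A trended prior called 31 of the 125 lower, and 1581 of all 4940 genes. The median was -0.02, and its sign turned after median centring (0.02) and cyclic loess (0.01). None was called without the slide block. The count was 6 without the first Δcgs1 array, 7 without the second and 8 without the first array labelled Δpka1. Among those with room to move, rpl3402 read 25114 and 28613 in the arrays labelled Δpka1, against 36962 and 43920 in Δcgs1 (-0.59, SE 0.06, adjusted p = 0.00179, and 0.0918 without the slide block).

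More autophagy genes were higher than lower, and nitrogen genes were called in both directions. Of 22 measured autophagy genes, 9 were higher (40.9%, against 12.5% of all genes) and 1 was lower (4.55%, against 28.8%), with a median of 0.20. None was 2-fold on both slides, 1 was higher without the slide block, and without either Δcgs1 array 5 were higher, against 6 without either array labelled Δpka1. The rises numbered 14 after median centring, 15 after quantile normalization and 18 after cyclic loess, where 827, 977 and 1137 of all genes were higher. The single fall was not called with any of these arrays left out. The gene of the ubiquitin-like protein of autophagosomes, atg8, read 20088 and 22228 in the arrays labelled Δpka1, against 13302 and 15853 in Δcgs1 (0.54, SE 0.06, adjusted p = 0.00233, and 0.103 without the slide block). Of 16 measured genes for nitrogen starvation and the uptake of amino acids, 3 were higher (18.8%, against 12.5% of all genes) and 4 were lower (25%, against 28.8%). Their median was 0.03, and 6 were higher after cyclic loess, where 1137 of all genes were. Without the slide block 1 was higher and none lower, and 1 was higher without either Δcgs1 array or the first array labelled Δpka1. The glutamate dehydrogenase gene gdh2 was the largest of these, with 51288 and 50590 in the arrays labelled Δpka1, against 21221 and 25476 in Δcgs1 and 32091 and 41211 in wild type (a difference of 1.13 with SE 0.10). The ammonium transporter gene amt3 was lower (-0.71, SE 0.07, adjusted p = 0.0019, and 0.0615 without the slide block).

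Among the falls, 1 sulfur gene stood out. Of 17 measured genes of sulfur assimilation, 2 were higher (11.8%, against 12.5% of all genes) and 6 were lower (35.3%, against 28.8%). The median of -0.05 turned to 0.00 after cyclic loess. In the fit with no slide block 1 was lower. With an array left out 1 was higher, and 2 were lower without the first array of either strain and 3 without the second. The gene met17, which encodes the enzyme that builds sulfide into homocysteine, read 9482 and 9547 in the arrays labelled Δpka1, against 49015 and 58578 in Δcgs1 and 48532 and 58595 in wild type (a difference of -2.49 with SE 0.09 and adjusted p = 0.000101). Both other strains lay far above the arrays labelled Δpka1 and side by side. The gene met16, for an earlier reductase of the pathway, was lower (-0.70, SE 0.08, adjusted p = 0.00281, and 0.151 without the slide block). The sulfate transporter gene sul2 read 23074 and 26212 in the arrays labelled Δpka1, against 15821 and 18014 in Δcgs1 and 9774 and 11813 in wild type (a difference of 0.54 with SE 0.05 and adjusted p = 0.00127, and 0.0504 without the slide block). Here both disruptants lay above wild type.

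**Figure D4:**
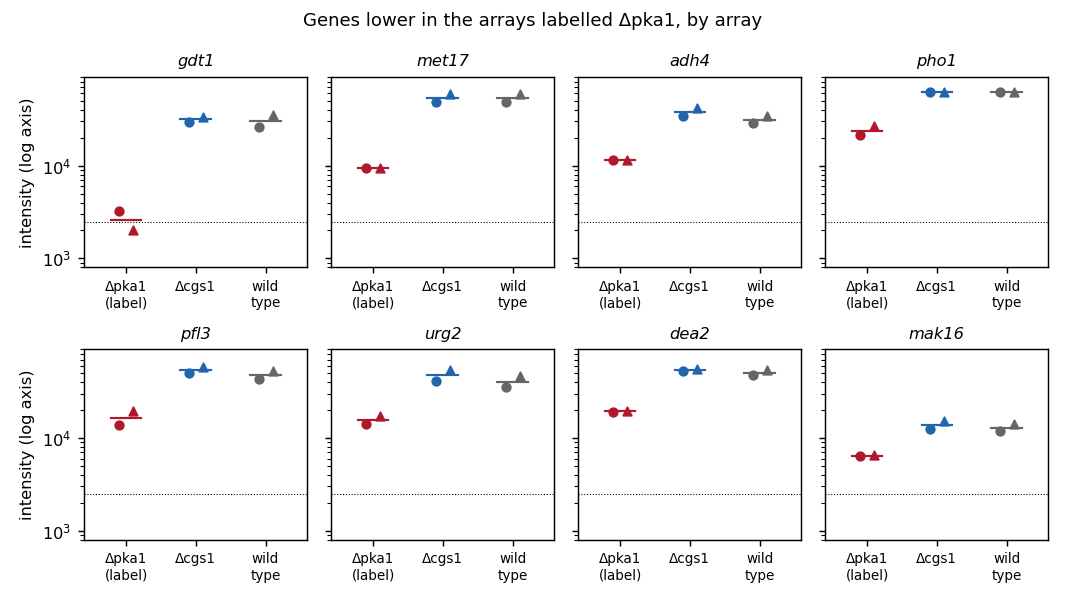
Intensity (log axis) of 8 genes that were lower in the arrays labelled Δpka1 (red) than in Δcgs1 (blue), with wild type in grey, circles for slide 1, triangles for slide 2, a bar at the mean of the 2 arrays and a dotted line at the background limit of 2497. In each panel both red points lie below all blue and grey points, and only gdt1 reaches the dotted line, on slide 2.

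Phosphate and adhesion genes fell in part. Of 9 measured phosphate starvation genes, 1 was higher (11.1%, against 12.5% of all genes) and 4 were lower (44.4%, against 28.8%), with a median of -0.22. Without the slide block 1 was lower, and without the first Δcgs1 array 2 were. The acid phosphatase gene pho1 read 21349 and 26708 in the arrays labelled Δpka1, against 62913 and 62165 in Δcgs1 and 61969 and 62364 in wild type (a difference of -1.39 with SE 0.09 and adjusted p = 0.000462). The other strains were near the top of the scale, so this fall is compressed. The glycerophosphodiester transporter gene tgp1 went the other way and rose by 0.73 (SE 0.04, adjusted p = 0.000300). Of 15 measured flocculins, adhesins and their regulators, 3 were higher (20%, against 12.5% of all genes) and 6 were lower (40%, against 28.8%), with a median of 0.00. The rises were mam3, map4 and mbx2, of which mam3 was also counted among the M-cell genes and map4 among the P-cell genes. No pfl gene was called higher, nor was gsf2. Without the slide block none of the list was higher and 2 were lower. The rises numbered 5 after median centring and 7 after quantile normalization or cyclic loess, where 827, 977 and 1137 of all genes were higher. With an array left out, none of the rises was called except 1 without the second array labelled Δpka1, and 3 were lower without either Δcgs1 array and 4 without the second array labelled Δpka1. The flocculin gene pfl3 read 13799 and 19712 in the arrays labelled Δpka1, against 49586 and 58260 in Δcgs1 (-1.70, SE 0.10, adjusted p = 0.000366). The galactose-binding flocculin gene gsf2 was lower (-0.44, SE 0.08, adjusted p = 0.0094), a call lost without the slide block (0.122) and without the first (0.064) or second (0.0788) Δcgs1 array. It read low in both disruptants, at 25498 and 25925 in the arrays labelled Δpka1, 32051 and 37803 in Δcgs1 and 42624 and 53597 in wild type.

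The other large falls belonged to no list. By mean difference, the largest with a symbol was in gdt1, which encodes an ion transporter of the Golgi. It read 3273 and 2007 in the arrays labelled Δpka1, against 29672 and 33806 in Δcgs1 (-3.63, SE 0.30, adjusted p = 0.000904). Signal for aes1 was 3136 and 2806 in the arrays labelled Δpka1, against 20523 and 22012 in Δcgs1 (-2.84, SE 0.10). Signal for nrg1 was in the background in the arrays labelled Δpka1, with 1975 and 1611, against 11088 and 11463 in Δcgs1, a fall of at least 4.51-fold. The repeated genes ftm1, ftm4 and ftm5 fell by 2.12, 2.06 and 1.95 on the log2 scale, but they are members of 1 family, and cross-hybridization between their probes was not tested. The falls of odc1 and ggc1 were 1.47 and 1.45 (differences -1.47, SE 0.09, and -1.45, SE 0.20).

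Several of the largest rises also lay outside the lists. Signal for mug14, a gene named for its rise in meiosis, was 61146 and 63969 in the arrays labelled Δpka1, near the top of the scale, against 2796 and 2729 in Δcgs1 (4.50, SE 0.17, adjusted p = 0.000102). Signal for hry1 was 18535 and 21051 in the arrays labelled Δpka1, against 1168 and 931 in Δcgs1, a rise of at least 7.91-fold. Signal for gcd1 was 56840 and 60270 in the arrays labelled Δpka1, against 7109 and 7002 in Δcgs1 (3.05, SE 0.09). That for ssd2 was 59258 and 58650 in the arrays labelled Δpka1, against 6870 and 7731 in Δcgs1 (3.02, SE 0.13). In mug14, gcd1 and ssd2 the arrays labelled Δpka1 reached the compressed part of the scale on at least 1 slide.

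Genes without a symbol made up 41 of the 107 stricter rises and 27 of the 59 stricter falls. Among these rises, SPAC22A12.17c read 45930 and 58171 in the arrays labelled Δpka1, against 2489 and 2061 in Δcgs1, at least 20.7-fold higher. SPCC1739.08c read 64427 and 62833 in the arrays labelled Δpka1, at the top of the scale, against 3448 and 2873 in Δcgs1 (4.34, SE 0.15). SPBC1289.14 and SPAC869.09 were in the background in Δcgs1 and rose at least 8.44-fold and 11.1-fold. Among the falls, SPAC1039.02 read 5729 and 5260 in the arrays labelled Δpka1, against 53614 and 59403 in Δcgs1 and 59388 and 63482 in wild type (a difference of -3.36 with SE 0.07 and adjusted p = 9.22e-05).

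A pair of the unnamed genes separated all 3 strains. SPBPB2B2.18 read 1779 and 1539 in the arrays labelled Δpka1, in the background, against 18303 and 20104 in Δcgs1 and 3573 and 4438 in wild type. It was at least 7.68-fold lower in the arrays labelled Δpka1 than in Δcgs1 (-3.54, SE 0.21, adjusted p = 0.000373). Its Δcgs1 signal lay 2.27 above wild type on the log2 scale (adjusted p = 0.0208). That second call is uncertain, since nearly all calls of Δcgs1 against wild type were lost with either Δcgs1 array left out. Whether SPBPB2B2.18 was among the lost calls was not looked at. SPCC330.03c read 2903 and 2027 in the arrays labelled Δpka1, against 18796 and 17872 in Δcgs1 and 9544 and 11356 in wild type (a difference of -2.92 with SE 0.19). Its difference between Δcgs1 and wild type was 0.82 and was not called (adjusted p = 0.185).

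Each disruptant was also set beside wild type in the same fit. These comparisons share arrays with the one above and with each other, and wild type lacks ura4, so their counts are given only side by side. The arrays labelled Δpka1 against wild type gave 1908 called genes (38.6%), 724 higher (14.7%) and 1184 lower (24%). Of these, 146 (2.96%) differed at least 2-fold on both slides, 107 higher (2.17%) and 39 lower (0.789%). Δcgs1 against wild type gave 41 called genes (0.83%), 32 higher (0.648%) and 9 lower (0.182%). Of these, 7 (0.142%) differed at least 2-fold on both slides, 5 higher (0.101%) and 2 lower (0.0405%). Without the slide block the counts were 418 and 7. With 1 array left out, the count for Δcgs1 against wild type lay between 1 and 27, with 1 called without either Δcgs1 array, 6 and 2 without the first and the second wild type array, 15 without either array labelled Δpka1 and 27 without either Δppt1 array. For the arrays labelled Δpka1 against wild type it was 1107 and 1051 without the first and the second array labelled Δpka1 and 1268 without the second wild type array.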

How the data were processed

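RNA of 4 strains was hybridized to 8 one-colour NimbleGen arrays with Cy3, 2 per strain, each from its own culture, per the labels' protocols. Per the file headers, the deposited values are linear-scale intensity, 1 gene-level summary of the probes per array, and 4922 of 4940 genes had 14 probes. The probe summary and array normalization are not given in the sources used here. Values of the whole-series table were the same, with a largest difference of 0. Symbols came from a RefSeq table (ASM294v3), which held 4917 of the genes, 4151 of them with a symbol.

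Intensities were taken to log2 with no further scaling and fitted with limma 3.58.1 in R 4.3.3, with 1 mean per strain and the slide as a block, over all 8 arrays (3 residual degrees of freedom). Two-sided p-values were adjusted over 4940 genes by Benjamini-Hochberg, and a gene was called at an adjusted p below 0.05. The titles place arrays of the same replicate number on 1 slide, and array deviations of the same slide correlated in all 6 pairs of strains (r from 0.351 to 0.690, and 0.690 for these 2 strains). Array medians lay between 21210 and 22148 on slide 1 and between 24677 and 25548 on slide 2. The number of arrays, 2 per strain, limits the precision. The fit was also run on simulated data made with the spread and slide shifts of the block fit itself. That run cannot show whether the block suits these data.

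The genes named were pka1, cgs1, ura4 and their neighbours, the signalling list, the 15 largest rises and falls with a symbol and the 5 without among the stricter calls, and up to 6 called members of each other list. Genes outside this rule are said to be named after their values were seen. The comparison, the 21 gene lists and the tests were chosen with earlier results of these data known. Of the list symbols 20 had no match, and 3 (aap1, gdt1 and inv1) were dropped from the nitrogen list as wrongly placed after values were seen. The background limit was also chosen after the data were seen. Promoter sequences were not analysed here. On slide 2 the titles and the names of the deposited tables give different array positions for the disruptants, and the labelled strain was taken. Alternatives were no slide block, only the 4 arrays, median centring, quantile and cyclic loess normalization, leaving out 94 dim or 370 bright genes, a trended prior and leaving out each array.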

Additional observations from a re-analysis of the deposited data

How the results depend on the processing

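The stricter count was 166 in the fit reported. In every alternative that kept all 4 arrays of these strains it was 163, with quantile normalization, to 166. With 1 of these 4 arrays left out only 1 slide gives a fold, so the stricter count cannot be made. The larger count of 2041 calls rested on the slide block: without it 511 genes were called, and 480 in the 4 arrays alone without it, against 2644 in the 4 arrays with it. Leaving out each array gave 883 to 2248 calls for this comparison, 1051 to 2095 for the arrays labelled Δpka1 against wild type and 1 to 27 for Δcgs1 against wild type. When an array is left out its partner is assumed to vary like the other strains, and 2 residual degrees of freedom are left. Against wild type, the counts without the slide block were 418 for the arrays labelled Δpka1 and 7 for Δcgs1. For Δcgs1 against wild type, 67 genes were called after median centring, 116 after quantile normalization, 83 after cyclic loess and 71 with a trended prior, against 41, and the cause was not tested. Of the 165 called genes named, 115 kept the call with each array left out, 97 without the slide block, 161 after median centring, 159 after quantile normalization and 155 after cyclic loess. Of the 22 named that were not called, 3 were called after median centring, 6 after quantile normalization and 5 after cyclic loess. Among the 75 called genes named that changed at least 2-fold on both slides, only fah1 lost its call, with the second Δcgs1 array left out. The 2-fold change itself was not rechecked in these fits.

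Among the 187 genes named, directions turned in 7, none of them called in the values as deposited. List medians near 0 also turned: those of the M-cell, meiosis, sulfur, glycolysis and ribosomal protein lists with the scaling, and those of the coenzyme Q, iron, glycolysis and flocculin lists with an array left out. SPAC8C9.04 had a difference of 0.0393 after median centring, 0.00882 after quantile normalization and 0.0378 after cyclic loess, and ssn6 0.0365, 0.00253 and 0.0401. After quantile normalization and cyclic loess, SPAC1142.09 had 0.00935 and 0.0517, and sck1 0.0226 and 0.0455. With each array left out, the range was -0.00445 to 0.00156 for SPAC8C9.04, -0.0418 to 0.0332 for ssn6, -0.0154 to 0.159 for git11 (0.248 after quantile normalization and 0.293 after cyclic loess, both called), -0.129 to 0.0464 for sck1, -0.0551 to 0.151 for php3 and -0.0273 to 0.0498 for php5. Signals under the background limit of 2497 and near the top of the scale limit what a fold can show. The planned search of promoters for motifs was not run.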

Other observations

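Some of the falls outside the lists were genes that salvage bases and nucleosides. They were picked because they fell, and how the other salvage genes moved was not counted. The 3 uracil-regulated genes urg1, urg2 and urg3 are neighbours in the reference gene order. Signal for urg2, which encodes uracil phosphoribosyltransferase, was 14117 and 17379 in the arrays labelled Δpka1, against 41360 and 54197 in Δcgs1 and 35456 and 46327 in wild type (difference -1.60, SE 0.04, limma adjusted p = 9.22e-05). Its neighbours urg1 and urg3 fell by 1.18 and 1.11 on the log2 scale. The uridine hydrolase gene urh1 read 5466 and 5645 in the arrays labelled Δpka1, against 10973 and 13136 in Δcgs1 (-1.11, SE 0.08). The adenine deaminase gene dea2 read 19202 and 19650 in the arrays labelled Δpka1, against 52540 and 55404 in Δcgs1 (-1.47, SE 0.05), and the guanine deaminase gene gud1 fell by 1.22. For urg2, urh1 and dea2 the arrays of the 2 strains did not overlap. Both strains carry ura4.

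Some stricter calls were neighbours in the reference gene order. Among the 107 rises there were 3 runs of adjacent genes, holding 8 genes, and the longest had 4: SPAC869.09, pcm2, mel1 and hry1, with differences from 1.96 to 4.24. Among the 59 falls there were 9 runs holding 21 genes, the longest of 3 genes each, among them urg2, urg3 and urg1, and pdc102 with SPAC750.02c and SPAC750.03c. Whether such runs exceed what gene order would give was not tested.

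A few genes, also picked after their values were seen, stood out by the strain that was apart. The kinase gene mug27 read 8359 and 8627 in the arrays labelled Δpka1, against 20953 and 21917 in Δcgs1 and 10174 and 10122 in wild type. It was high only in Δcgs1 among these strains, 1.08 above wild type on the log2 scale (adjusted p = 0.00576). Nearly all calls of Δcgs1 against wild type were lost with either Δcgs1 array left out. Whether mug27 was among the lost calls was not looked at, so this call is uncertain. Between the disruptants mug27 differed by -1.34 (adjusted p = 0.000132). The flocculin gene pfl8 was low in both disruptants, with 16901 and 19484 in the arrays labelled Δpka1, 20140 and 20448 in Δcgs1 and 40408 and 46180 in wild type. Its difference between the disruptants was not called (-0.16, 95% interval -0.31 to -0.01, adjusted p = 0.0812). Wild type alone of these strains lacks ura4, and the part of this difference in the pfl8 signal was not tested.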
